A study of Mus musculus with 12 samples.

Results

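The genes of mitochondrial fatty acid oxidation and ketone body formation were followed in mouse liver as a list of 34 named genes out of 56107 genes in the expression table. The list was chosen by gene symbol, with earlier results of these data known, and each of the 34 symbols matched 1 row. Each liver gave 1 RNA-seq library, and the 12 libraries fall into 4 groups of 3 mice. The groups were Lix1l knockouts on a high-fat diet (HFD), wild-type (WT) littermates on HFD, knockouts on a low-fat diet (LFD) and WT littermates on LFD, all on their diet for 12 weeks from 6 weeks of age. The labels name a Lix1l knockout and do not give the deleted part of the gene, the strain or the composition of the diets. Lix1l codes for a protein described as RNA-binding, and the series asks how it acts in fatty liver disease.

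Fatty acids reach the mitochondrial matrix as carnitine esters, made by carnitine palmitoyltransferases and passed across the inner membrane by a carrier. Beta-oxidation then repeats a cycle of dehydrogenation, hydration, a second oxidation and thiolysis, and electrons from the first step pass through the electron transfer flavoprotein and its dehydrogenase to ubiquinone. In liver, much of the acetyl-CoA made in fasting becomes ketone bodies, which are exported, and the nuclear receptor PPARA with its coactivators drives many of these genes.

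Levels are in TPM, transcript abundance scaled to transcript length and to the same total in each library, so the depth of the libraries is unknown. A gene was tested when it reached 1 TPM in at least 3 libraries, which 11980 genes did. Of the 34 listed genes 33 were tested, and Ppargc1b stayed below the filter. Differences are on the log2(TPM + 1) scale with the standard error after ±, and adjusted p is from limma with Benjamini-Hochberg adjustment over the 11980 genes. This scale understates the change of genes at a few TPM. A gene was called at an adjusted p below 0.05, and p-values measure the spread between the mice of these groups.

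The level of Lix1l did not separate the genotypes, so the libraries are named here by their labels. On HFD it was 1.92, 0.15 and 1.38 TPM in livers labelled KO and 1.18, 1.73 and 0.9 TPM in WT livers, and on LFD it was 0.27, 0.21 and 0.78 TPM in livers labelled KO and 0.72, 0.58 and 1.08 TPM in WT livers. Albumin was between 17654 and 51216 TPM in the 12 libraries, and the summed skeletal muscle markers were at or below 0.13 TPM in every library. The 6 adipocyte markers summed to 14.2 to 32.7 TPM in labelled KO HFD livers against 57.8 to 257 TPM in WT HFD livers. Adipoq, Plin1 and Lep among them were at or below 0.25 TPM in every library, Cfd and Lipe were called lower and Fabp4 higher. One library stood apart. In labelled KO HFD liver 1, mitochondrially encoded genes took 22.6% of the TPM, against 12.6% and 10.9% in livers 5 and 6 of its group and 8.58 to 11.1% in WT HFD livers. This liver held the lowest value of its group in 77.5% of all genes tested and in 84.8% of the listed genes tested, and results are given with and without it. Markers of other cell types also moved with genotype: 10 endothelial markers summed to 99.8 to 115 TPM in labelled KO HFD livers against 36.8 to 49 TPM in WT HFD livers, with 9 of 10 called higher. The 10 Kupffer cell and macrophage markers summed to 63.7 to 395 TPM in labelled KO HFD livers against 23.8 to 68.8 TPM in WT HFD livers, with 6 of 10 called higher. The stellate cell and fibroblast markers summed to 41.3 to 78.4 TPM in labelled KO HFD livers against 25.9 to 43.1 TPM in WT HFD livers. Of the 8 tested among them 3 were called higher. The cholangiocyte markers ran the other way, at 25.9 to 32.4 TPM in labelled KO HFD livers and 41.3 to 69.2 TPM in WT HFD livers. Of the 3 tested among these 2 were called lower. Between these 2 groups 11.2% of all genes tested were called higher and 25.8% lower. The 8 hepatocyte markers summed to 44905 to 65175 TPM in labelled KO HFD livers against 76489 to 87325 TPM in WT HFD livers, with 4 of 8 called lower, and Malat1, a nuclear RNA, was at 39.5 to 126 TPM in labelled KO HFD livers against 4.22 to 8.7 TPM in WT HFD livers. In bulk tissue, fewer cells of a type and less RNA per cell cannot be told apart, and the part of these shifts in the results below was not tested.

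The 34 genes lie on 16 chromosomes (mm10, GENCODE M21). Hadha and Hadhb, which code for the subunits of the mitochondrial trifunctional protein, stand head to head on chromosome 5 with 85 bases between them, and Acot2 and Acot1 follow each other on chromosome 12 with 15616 bases between them. RefSeq promoter sequence (GRCm38.p6, 250 bases before to 50 after the start site) was at hand for 27 of the 34. Letter patterns of 5 kinds were searched on both strands. The PPAR direct repeat (AGGNCA, 1 free base, AGGNCA) and the ERR element TCAAGGTCA were in 0 of the 27, against 0.451% and 0.466% of 27025 genes, and no match says only that these letters are not in this window. The NRF1 element (GCGCA, 1 free base, GCGC) was in 5 of 27 (18.5%, against 5.19% of all genes), the nuclear receptor half-site AGGTCA in 4 of 27 (14.8%, against 18.1%) and the GC box GGGCGG in 20 of 27 (74.1%, against 38.2%). The ERR element contains the half-site, so these matches can overlap. The stretches shown here were chosen because they pair genes that were lower in labelled KO HFD livers (Cpt1a, Echs1, Slc22a5) with genes that did not pass the test (Acadvl, Etfb) and carry the same letters. They are upstream of the RefSeq start and outside GENCODE exons (the Cpt1a stretch lies within the gene as GENCODE annotates it), and capitals mark the half-site, its reverse complement in Cpt1a, the NRF1 element or, between Hadha and Hadhb, the GC box.
Cpt1a, chr19:3323165-3323284, plus strand: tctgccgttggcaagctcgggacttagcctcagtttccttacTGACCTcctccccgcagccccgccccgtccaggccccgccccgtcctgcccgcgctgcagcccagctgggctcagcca
Echs1, chr7:140116477-140116596, minus strand: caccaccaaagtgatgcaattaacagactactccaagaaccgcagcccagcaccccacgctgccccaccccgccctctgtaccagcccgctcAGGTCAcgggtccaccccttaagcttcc
Acadvl, chr11:70015429-70015548, minus strand: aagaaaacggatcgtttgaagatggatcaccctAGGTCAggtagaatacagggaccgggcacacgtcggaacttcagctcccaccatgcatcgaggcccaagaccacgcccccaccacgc
Slc22a5, chr11:53891704-53891839, minus strand: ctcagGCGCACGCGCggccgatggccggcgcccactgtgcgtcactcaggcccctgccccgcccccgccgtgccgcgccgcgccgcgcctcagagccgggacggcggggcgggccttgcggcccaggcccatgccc
Etfb, chr7:43443952-43444071, plus strand: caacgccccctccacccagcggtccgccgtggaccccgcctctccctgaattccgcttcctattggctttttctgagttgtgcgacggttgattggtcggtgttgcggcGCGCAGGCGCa
Hadha to Hadhb, chr5:30155163-30155247, plus strand: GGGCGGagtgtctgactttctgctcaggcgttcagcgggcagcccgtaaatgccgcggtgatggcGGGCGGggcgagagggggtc

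On HFD, 23 of the 33 tested genes were lower in livers labelled KO than in WT livers and 1 was higher, Echdc2. The falls took in at least 1 gene of every step from carnitine entry to ketone bodies, with the largest in Echdc1, Etfdh and Acad11, and 16 of the 23 exceeded 1 on the log2 scale. In WT LFD livers the most abundant of the 34 genes per transcript length were Etfb (827 ± 47.5 TPM) and Acaa2 (693 ± 101 TPM), and Ppargc1a (1.86 ± 0.282 TPM) and Ppargc1b (0.833 ± 0.284 TPM) were the least abundant (SD, n = 3 each). The TPM of the 34 genes summed to 2773.2, 3828.3 and 3990.7 in livers labelled KO, against 6081.8, 5520 and 5835.5 in WT livers. In the same comparison 37.0% of all genes tested were called, 25.8% lower and 11.2% higher, against 72.7% of the listed genes. The median difference was -0.97 over the listed genes and -0.25 over all genes tested. Values of the 2 groups did not overlap in 31 of 33 listed genes, 28 lower and 3 higher, where 37.3% and 16.1% of all genes tested did so. Without labelled KO HFD liver 1, 20 listed genes were lower and 1 higher, and the median was -0.83 over the listed genes and -0.12 over all genes tested. Without WT HFD liver 1, 19 listed genes and 2336 of all genes tested were called, in place of 24 and 4435. The calls held under each of 22 alternatives for 17 of the 24 genes, and that of Ppargc1a under the 21 in which it was tested.

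**Figure D1:**
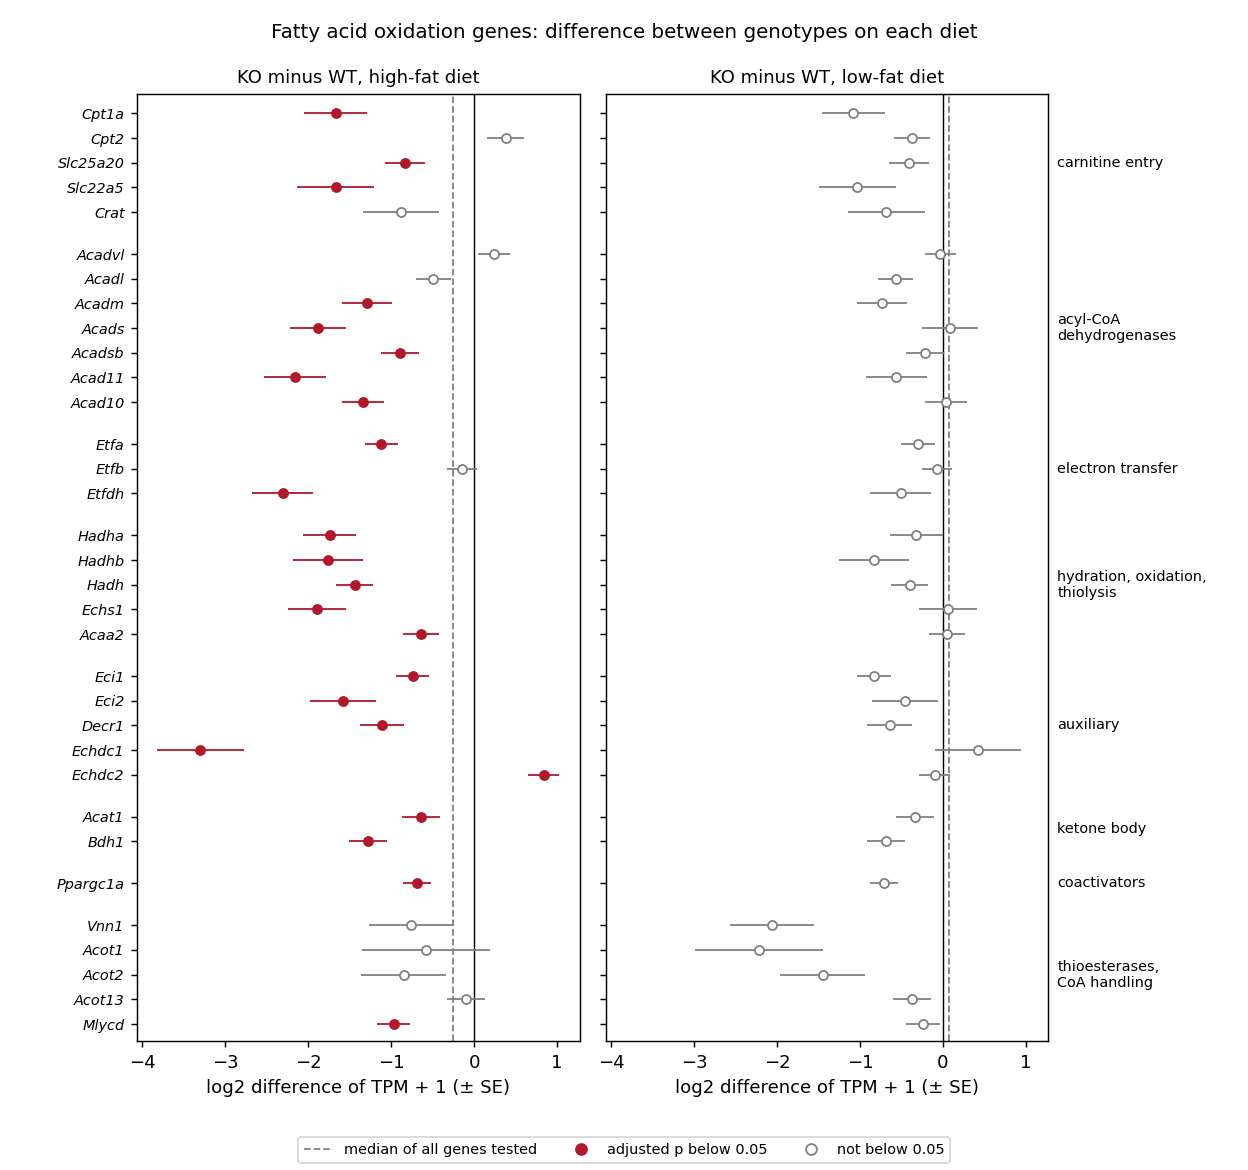
Difference between livers labelled KO and WT livers for the 33 tested genes, grouped by role, on HFD (left) and on LFD (right). The x axis is the log2 difference of TPM + 1, points are estimates, bars are ± SE from limma with 3 livers per group, filled points have an adjusted p below 0.05, and the dashed line is the median of all genes tested (-0.25 on HFD and 0.07 on LFD). On HFD 23 filled points lie left of 0 and 1, Echdc2, lies right, while on LFD no point is filled.

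Among the genes of entry through carnitine 3 of 5 were lower on HFD, and Cpt2 did not follow them. Cpt1a, the outer-membrane palmitoyltransferase that sets the rate of entry, had 27.45, 37.7 and 44.6 TPM in labelled KO HFD livers, against 123, 97 and 133 TPM in WT HFD livers. The groups were well apart, and the difference was -1.67 ± 0.38 (limma adjusted p = 0.0072). Slc25a20, the inner-membrane carnitine-acylcarnitine carrier, had 59.9, 67.1 and 68.6 TPM in labelled KO HFD livers, against 120, 122 and 108 TPM in WT HFD livers (-0.83 ± 0.24, adjusted p = 0.0191). The plasma-membrane carnitine transporter Slc22a5 had 3.04, 5 and 3.92 TPM in labelled KO HFD livers and 16.1, 11.4 and 17.2 TPM in WT HFD livers. Its difference was -1.67 ± 0.46 (adjusted p = 0.0165), and without labelled KO HFD liver 1 it was -1.53 (adjusted p = 0.0573). The call on Slc25a20 was lost under median-ratio scaling, with -0.57 (adjusted p = 0.0672). Cpt2, the inner-membrane palmitoyltransferase, ran the other way, with 139, 159 and 116 TPM in labelled KO HFD livers and 107, 99 and 109.6 TPM in WT HFD livers. All 3 livers labelled KO were above the WT livers, but the difference of 0.38 ± 0.22 did not pass (adjusted p = 0.183). The ratio of Cpt1a to Cpt2 TPM was 0.197, 0.237 and 0.385 in labelled KO HFD livers and 1.14, 0.98 and 1.21 in WT HFD livers. Crat, which moves short acyl groups between carnitine and CoA, differed by -0.88 ± 0.46 and did not pass (adjusted p = 0.147).

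Among the acyl-CoA dehydrogenases, which start each turn of the cycle, 5 of 7 fell on HFD, and Acadvl and Acadl did not pass. Acadm, the medium-chain enzyme, had 107, 132 and 155 TPM in labelled KO HFD livers and 342, 288 and 332 TPM in WT HFD livers (-1.29 ± 0.30, adjusted p = 0.00835). Acads, the short-chain enzyme, had 16, 34.6 and 49.5 TPM in labelled KO HFD livers and 123, 104 and 115 TPM in WT HFD livers (-1.88 ± 0.34, adjusted p = 0.00283). The KO-labelled values of Acads spread widely, with liver 1 lowest, and without that liver the difference was -1.44 (adjusted p = 0.00435). Acad11, which acts on long chains and on 4-hydroxy acids, had 14.6, 36.1 and 44.5 TPM in labelled KO HFD livers and 146, 108 and 147 TPM in WT HFD livers (-2.16 ± 0.37, adjusted p = 0.00241). Acad10, a related dehydrogenase, had 2.9, 5.8 and 5.93 TPM in labelled KO HFD livers and 16, 11.2 and 13.5 TPM in WT HFD livers (-1.34 ± 0.25, adjusted p = 0.00287). Acadsb, the enzyme for short branched chains, had 16.3, 23.2 and 27.6 TPM in labelled KO HFD livers and 41, 35.9 and 48.8 TPM in WT HFD livers (-0.89 ± 0.23, adjusted p = 0.0124). In each of these 5 genes every liver labelled KO was below every WT liver. Acadvl, the very-long-chain enzyme of the inner membrane, had 261, 309 and 259.9 TPM in labelled KO HFD livers and 245, 216 and 239 TPM in WT HFD livers (0.24 ± 0.19, adjusted p = 0.324). Acadl, the long-chain enzyme, had 100.2, 122 and 111 TPM in labelled KO HFD livers and 157.5, 166 and 145 TPM in WT HFD livers (-0.49 ± 0.21, adjusted p = 0.0869). The ratio of Acadm to Acadvl TPM was 0.412, 0.428 and 0.596 in labelled KO HFD livers and 1.39, 1.33 and 1.39 in WT HFD livers, with no overlap. Under median-ratio scaling Acadvl was called higher, with 0.50 (adjusted p = 0.046).

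Electron transfer was lower in 2 of its 3 genes, and the subunits of the flavoprotein parted. Etfdh, the dehydrogenase that hands electrons to ubiquinone, had 13.7, 31.8 and 49.7 TPM in labelled KO HFD livers and 164, 116 and 154 TPM in WT HFD livers. All 3 livers labelled KO were far below the WT livers, and the difference was -2.31 ± 0.37 (adjusted p = 0.00192). Without labelled KO HFD liver 1 the difference was -1.82 (adjusted p = 0.00255). Etfa, the alpha subunit, had 115, 163 and 188 TPM in labelled KO HFD livers and 348, 326 and 322 TPM in WT HFD livers (-1.12 ± 0.20, adjusted p = 0.00252). Etfb, the beta subunit that pairs with it, had 583, 790.2 and 837 TPM in labelled KO HFD livers and 829, 798 and 792 TPM in WT HFD livers. These values overlapped, and the difference was -0.15 ± 0.18 (adjusted p = 0.543). The ratio of Etfa to Etfb TPM was thus 0.197, 0.207 and 0.224 in labelled KO HFD livers and 0.42, 0.409 and 0.407 in WT HFD livers.

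**Figure D2:**
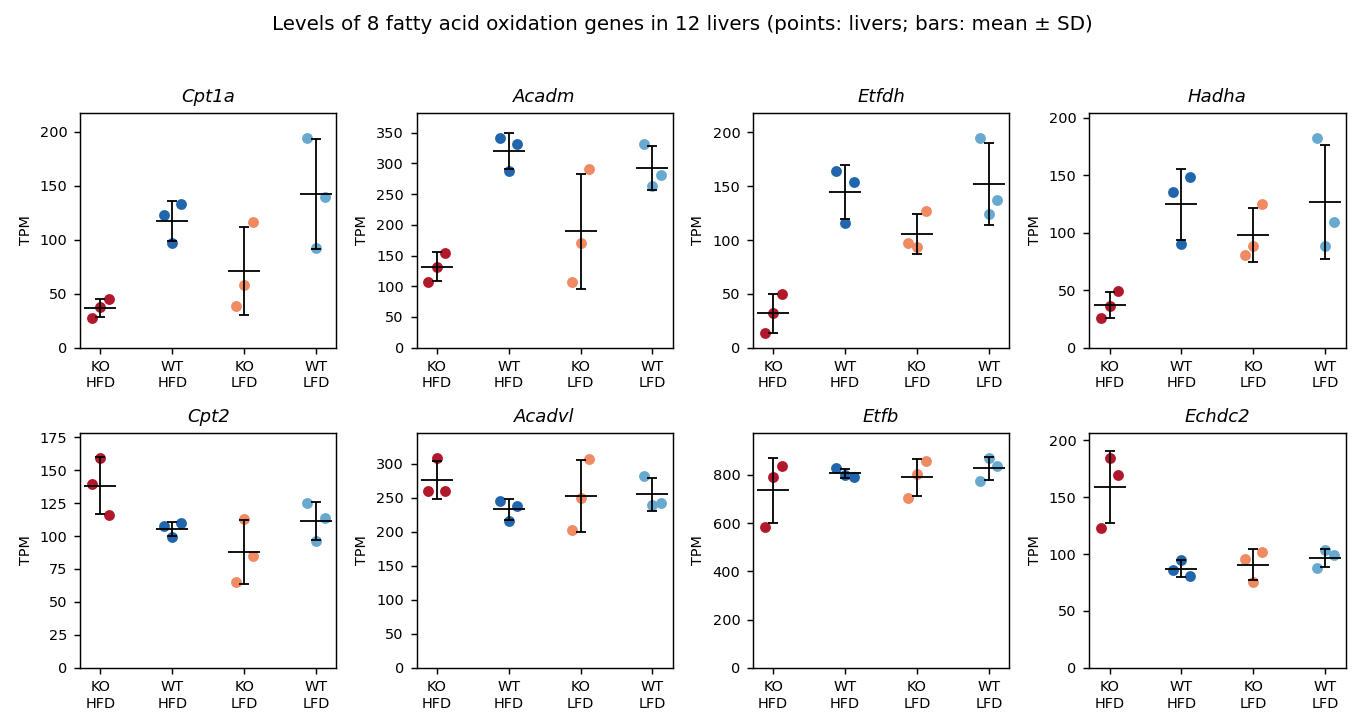
Levels of 8 genes in TPM (y axis, from 0) in the 12 livers, with 3 points per group, the mean as a line and ± SD as bars, for KO HFD, WT HFD, KO LFD and WT LFD (KO by label). Cpt1a, Acadm, Etfdh and Hadha (upper row) lie lower in all 3 KO HFD livers than in any WT HFD liver, whereas Cpt2, Acadvl and Echdc2 lie higher and Etfb overlaps.

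All 5 genes of the later steps of the cycle were lower on HFD. Hadha, the trifunctional protein subunit with hydratase and hydroxyacyl-CoA dehydrogenase activity, had 26.15, 36.1 and 49.1 TPM in labelled KO HFD livers and 135.5, 90.05 and 149 TPM in WT HFD livers (-1.74 ± 0.32, adjusted p = 0.00298). Hadhb, its thiolase subunit, had 22.6, 53.15 and 95.6 TPM in labelled KO HFD livers and 177, 137 and 193 TPM in WT HFD livers (-1.76 ± 0.42, adjusted p = 0.00903). The pair differed by nearly the same amount on HFD, although their ratio ran from 0.513 to 1.16 in labelled KO HFD livers and from 0.657 to 0.769 in WT HFD livers. On LFD, Hadha and Hadhb differed between genotypes by -0.32 and -0.83. The part of the stretch between these genes was not tested. Hadh, the dehydrogenase for shorter chains, had 102, 119 and 119 TPM in labelled KO HFD livers and 344, 286 and 300.4 TPM in WT HFD livers. It had the lowest adjusted p of the listed genes (-1.44 ± 0.22, adjusted p = 0.00154) and hardly moved without labelled KO HFD liver 1 (-1.37, adjusted p = 0.00404). Echs1, the matrix hydratase, had 27.25, 57.6 and 84.9 TPM in labelled KO HFD livers and 226, 169.8 and 190.1 TPM in WT HFD livers (-1.90 ± 0.35, adjusted p = 0.00323). Acaa2, the matrix thiolase, had 364, 581 and 597 TPM in labelled KO HFD livers and 850.4, 722 and 781 TPM in WT HFD livers (-0.64 ± 0.22, adjusted p = 0.0398). The call on Acaa2 was lost under 8 of 22 alternatives, with -0.41 (adjusted p = 0.0988) without labelled KO HFD liver 1.

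The auxiliary enzymes, which handle double bonds and side products, held both the largest fall and the only rise. Eci1 and Eci2 are enoyl-CoA isomerases. Eci1 had 136, 161 and 187 TPM in labelled KO HFD livers and 266, 284 and 252.5 TPM in WT HFD livers (-0.74 ± 0.20, adjusted p = 0.0153). Eci2 had 54.4, 100.4 and 112 TPM in labelled KO HFD livers and 271, 244 and 250.4 TPM in WT HFD livers (-1.58 ± 0.40, adjusted p = 0.0119). Decr1, the dienoyl-CoA reductase for polyunsaturated chains, had 32.7, 55.1 and 64.4 TPM in labelled KO HFD livers and 111, 97.8 and 112 TPM in WT HFD livers (-1.11 ± 0.27, adjusted p = 0.00904). In all 3 genes the groups were apart. Echdc1, a cytosolic decarboxylase that removes ethylmalonyl-CoA, had 0.89, 2.25 and 3.65 TPM in labelled KO HFD livers and 34.1, 25.6 and 28.2 TPM in WT HFD livers (-3.30 ± 0.52, adjusted p = 0.00179). Of its 31-base words 84.3% also occur in another gene, mostly the neighbouring Rnf146 (75.5%), so its level is uncertain. Rnf146 itself had 5.36, 8.27 and 9.15 TPM in labelled KO HFD livers and 10.04, 5.88 and 10.92 TPM in WT HFD livers, which overlapped. Echdc2, a mitochondrial relative of the hydratases, had 123, 184 and 169.6 TPM in labelled KO HFD livers and 86.1, 95 and 80.8 TPM in WT HFD livers. All 3 livers labelled KO were higher (0.84 ± 0.19, adjusted p = 0.00794), also without liver 1 (1.01, adjusted p = 0.00355).

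Both ketone body enzymes on the list fell on HFD. Bdh1, which interconverts acetoacetate and 3-hydroxybutyrate, had 62.8, 81.4 and 100.1 TPM in labelled KO HFD livers and 199, 203 and 185 TPM in WT HFD livers (-1.28 ± 0.23, adjusted p = 0.00281). Acat1, the thiolase that forms acetoacetyl-CoA, had 121, 173 and 181 TPM in labelled KO HFD livers and 263, 224 and 248 TPM in WT HFD livers (-0.64 ± 0.23, adjusted p = 0.0448). The call on Acat1 was the least stable of the 24, being lost under 12 of 22 alternatives, with -0.46 (adjusted p = 0.129) without labelled KO HFD liver 1.

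The coactivator Ppargc1a, which drives mitochondrial and fasting genes, was a low transcript at 0.25, 0.37 and 0.21 TPM in labelled KO HFD livers and 1.21, 1.15 and 0.84 TPM in WT HFD livers (-0.69 ± 0.17, limma adjusted p = 0.0103). It passed the filter only through WT livers, since no liver labelled KO reached 1 TPM. A filter of 5 TPM dropped it, and 22 listed genes were then called lower and 1 higher. Ppargc1b, a relative of Ppargc1a, was not tested, at 0.17 to 0.54 TPM in labelled KO HFD livers and 0.69 to 0.82 TPM in WT HFD livers. Of the 5 thioesterases and CoA-handling genes, Mlycd alone passed on HFD. Mlycd, which breaks down the Cpt1a inhibitor malonyl-CoA, had 20.3, 30.7 and 33.15 TPM in labelled KO HFD livers and 58.8, 54.4 and 51.85 TPM in WT HFD livers (-0.97 ± 0.20, adjusted p = 0.00512). Vnn1, a pantetheinase, differed by -0.76 ± 0.51 (adjusted p = 0.257), and the thioesterases Acot1, Acot2 and Acot13 by -0.58 ± 0.77, -0.85 ± 0.51 and -0.10 ± 0.23 (adjusted p = 0.574, 0.204 and 0.753).

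Genes around the cycle were followed through lists that, like the listed genes, were drawn up with earlier results of these data known. Beside each count, 25.8% of all genes tested were called lower and 11.2% higher. Of the enzymes that activate fatty acids to acyl-CoA, 4 of 7 were lower in labelled KO HFD livers and none higher, among them Acsl1, the main long-chain synthetase of liver (178 ± 28.9 TPM in labelled KO HFD livers and 399 ± 86.5 TPM in WT HFD livers, SD, n = 3 each; limma adjusted p = 0.0174). In the PPARA list 5 of 12 were lower and none higher, and differences were negative in 8 and positive in 4. Ppara itself differed by -0.83 ± 0.28 (limma adjusted p = 0.0381). Its targets Cyp4a10 and Cyp4a14 overlapped between these groups. Cyp4a10 was at 822 ± 196 TPM in labelled KO HFD livers and 768 ± 223 TPM in WT HFD livers (SD, n = 3 each). Cyp4a14 was at 348 ± 191 and 416 ± 146 TPM in the same groups. Of the genes that make malonyl-CoA or code for subunits of the AMP-activated kinase, 2 of 7 were lower, a share near the background. These were Prkaa2 and Prkag1, both subunits of that kinase (-1.43 ± 0.23 and -0.63 ± 0.17). In the branched and odd-chain list 4 of 10 were lower and 1 higher, with Mmut, methylmalonyl-CoA mutase, at -1.76 ± 0.29 (adjusted p = 0.00194). Of 15 genes of the tricarboxylic acid cycle, which burns the acetyl-CoA, 9 were lower and 1 higher, with Sdha, a succinate dehydrogenase subunit, at -1.57 ± 0.30 (adjusted p = 0.00354). The medians of these lists ran from -0.46 to -0.80, beside -0.25 for all genes tested.

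**Figure D3:**
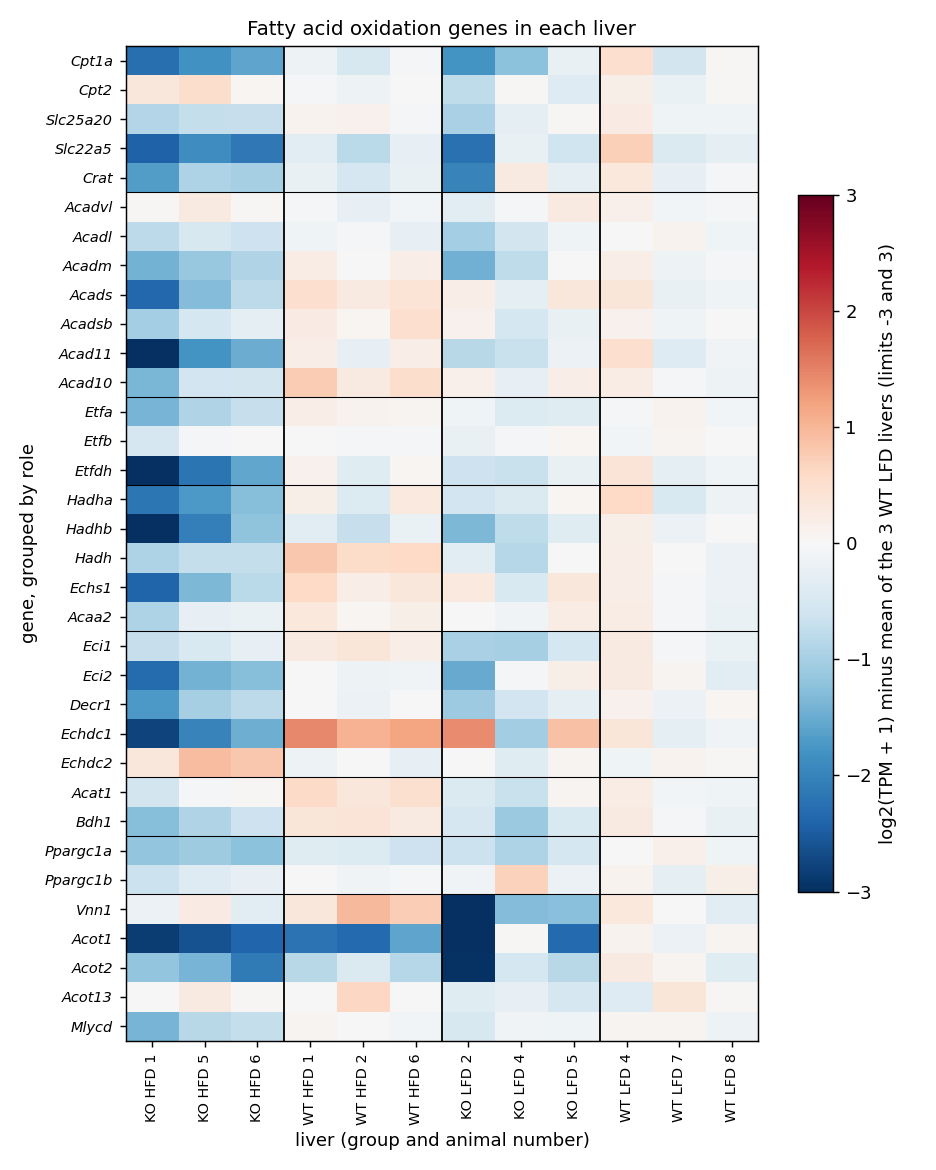
Each row is a listed gene, grouped by role, and each column a liver with its animal number (KO by label). Colour is log2(TPM + 1) minus the mean of the 3 WT LFD livers, with values beyond -3 or 3 drawn at the end of the scale. KO HFD liver 1 is the lowest of the 12 in 19 genes and KO LFD liver 2 in 9, and Vnn1, Acot1 and Acot2 in KO LFD liver 2 stand out from the other LFD livers.

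On LFD, none of the 33 tested genes was called between livers labelled KO and WT livers by limma, and 11 had an unadjusted p below 0.05, where 0.159% of all genes tested were called and 12.7% had such a p. The differences were negative in 28 of 33 genes, with a median of -0.41 beside 0.07 over all genes tested. With each library left out in turn, the median of the listed genes ran from -0.63 (without labelled KO LFD liver 5) to -0.32 (without WT LFD liver 4). Values did not overlap in 9 genes, all lower, where 6.35% of all genes tested were lower in this way and 11.2% higher. The lowest adjusted p belonged to Ppargc1a and Eci1. Ppargc1a, which passed the filter only through WT livers, had 0.81, 0.49 and 0.97 TPM in labelled KO LFD livers and 1.82, 2.16 and 1.6 TPM in WT LFD livers (-0.71 ± 0.17, limma adjusted p = 0.132). Eci1 had 113, 109.8 and 153 TPM in labelled KO LFD livers and 265, 210.5 and 193 TPM in WT LFD livers (-0.83 ± 0.20, limma adjusted p = 0.132). Eci1 was called under median-ratio scaling (-0.95, adjusted p = 0.0343). Cpt1a had 38.5, 57.6 and 117 TPM in labelled KO LFD livers and 194, 92.3 and 139.7 TPM in WT LFD livers, which overlapped (-1.08 ± 0.38, adjusted p = 0.26). The cholangiocyte markers overlapped on LFD, at 36.1 to 40.8 TPM in labelled KO LFD livers and 29.1 to 58.3 TPM in WT LFD livers. Sums for the other cell types given above for HFD were apart on LFD too, though no marker of theirs was called. The endothelial markers summed to 95 to 108 TPM in labelled KO LFD livers and 52 to 61.3 TPM in WT LFD livers. The Kupffer cell and macrophage markers summed to 135 to 436 TPM in labelled KO LFD livers and 55.4 to 105 TPM in WT LFD livers. The stellate cell and fibroblast markers summed to 70.6 to 113 TPM in labelled KO LFD livers and 41 to 70.5 TPM in WT LFD livers. Their part in these values was not tested.

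The widest LFD differences were in Acot1, Vnn1 and Acot2, which were singled out after their values were seen. Acot1, a cytosolic thioesterase and PPARA target, had 10.4, 236 and 45.1 TPM in labelled KO LFD livers and 249, 203 and 246 TPM in WT LFD livers. One liver labelled KO was in the WT range and the other two were far below it, so the difference of -2.22 ± 0.77 did not pass (adjusted p = 0.257). Without labelled KO LFD liver 4 Acot1 was called (-3.34, adjusted p = 0.0173), and without liver 2 the difference was -1.16 (adjusted p = 0.504). Vnn1 had 4.58, 26.9 and 27.6 TPM in labelled KO LFD livers and 84.7, 68.1 and 53.2 TPM in WT LFD livers (-2.06 ± 0.51, adjusted p = 0.139), and all 3 livers labelled KO were lower. Acot2, the mitochondrial thioesterase beside Acot1, had 0.9, 9.24 and 7.29 TPM in labelled KO LFD livers and 16.95, 14.7 and 10.6 TPM in WT LFD livers (-1.45 ± 0.51, adjusted p = 0.263). Of the 31-base words of Acot2 37.8% occur in another gene, 29.9% in Acot1, so the split of reads between these thioesterases is uncertain. The PPARA targets Cyp4a10 and Cyp4a14 differed by -3.88 ± 1.18 and -3.97 ± 1.73 on LFD (adjusted p = 0.198 and 0.361).

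**Figure D4:**
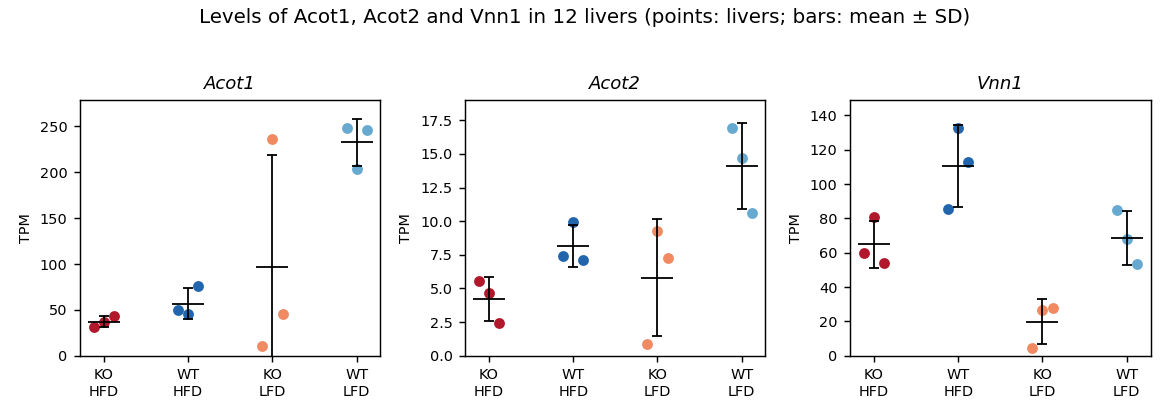
Levels of Acot1, Acot2 and Vnn1 in TPM (y axis, from 0) in the 12 livers, with 3 points per group, the mean as a line and ± SD as bars (the lower bar of Acot1 in KO LFD is cut at 0), KO by label. On LFD, KO liver 2 is the lowest point of each panel, and Acot1 in KO LFD liver 4 lies among the WT LFD livers.

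The difference between genotypes was compared between diets by the interaction, which was called for 4 of 33 genes (12.1%), where 9.66% of all genes tested were called. All 4 were more negative on HFD than on LFD, as were 7.12% of all genes tested. Echdc1 differed by -3.30 on HFD and 0.42 on LFD (interaction -3.72 ± 0.74, adjusted p = 0.0215), with the reservation on its reads given above. Acads differed by -1.88 on HFD and 0.09 on LFD (interaction -1.97 ± 0.48, adjusted p = 0.0342). Echs1 differed by -1.90 on HFD and 0.06 on LFD (interaction -1.96 ± 0.50, adjusted p = 0.0377). Acad10 differed by -1.34 on HFD and 0.04 on LFD (interaction -1.38 ± 0.35, adjusted p = 0.0362). For the other 29 tested genes the interaction did not pass, including Cpt1a (-0.59 ± 0.54, adjusted p = 0.461) and Hadhb (-0.93 ± 0.59, adjusted p = 0.293), so a call on HFD and none on LFD does not show that they differed between diets. None of the 4 calls held without each library in turn, and counts of listed genes then ran from 0 (without WT HFD liver 1 or 6 or WT LFD liver 7 or 8) to 9 (without WT LFD liver 4). The count was 1 without labelled KO LFD liver 2 or 5, 2 without labelled KO HFD liver 5, and 8 without labelled KO HFD liver 6 or labelled KO LFD liver 4. Over all genes tested, calls ran from 28 (without WT HFD liver 1) to 2038 (without labelled KO LFD liver 4), against 1157 with all libraries.

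Between diets, 14 listed genes were called in livers labelled KO and 0 in WT livers, though the interaction passed only for the 4 genes above. HFD against LFD gave 11 lower and 3 higher of 33 in livers labelled KO (42.4%), where 23.8% of all genes tested were called, 17.0% lower and 6.73% higher. These comparisons share the labelled KO HFD libraries with the genotype comparison on HFD. The median was -0.45 over the listed genes and -0.22 over all genes tested. It was -0.30 over the listed genes without labelled KO HFD liver 1, -0.75 without labelled KO LFD liver 2 and -0.21 under median-ratio scaling, where the median of all genes tested was -0.08, -0.21 and 0.00. Mitochondrially encoded genes took 10.9 to 22.6% of the TPM in labelled KO HFD livers and 7.53 to 8.77% in labelled KO LFD livers. Malat1 was at 39.5 to 126 TPM in labelled KO HFD livers and 22.8 to 38.2 TPM in labelled KO LFD livers, and Neat1, also a nuclear RNA, was called higher (2.08 ± 0.49, adjusted p = 0.0131). Their part in this comparison was not tested. Etfdh had 13.7, 31.8 and 49.7 TPM in labelled KO HFD livers and 96.8, 93.1 and 127 TPM in labelled KO LFD livers (-1.86 ± 0.37, adjusted p = 0.0075). Hadha had 26.15, 36.1 and 49.1 TPM in labelled KO HFD livers and 80.8, 88.4 and 125 TPM in labelled KO LFD livers (-1.40 ± 0.32, adjusted p = 0.0121). Etfdh and Hadha were the only 2 of the 14 that were called under each of the 22 alternatives. Acads had 16, 34.6 and 49.5 TPM in labelled KO HFD livers and 98.4, 71.6 and 110.2 TPM in labelled KO LFD livers (-1.57 ± 0.34, adjusted p = 0.0102). Echs1 had 27.25, 57.6 and 84.9 TPM in labelled KO HFD livers and 183, 108 and 189 TPM in labelled KO LFD livers (-1.58 ± 0.35, adjusted p = 0.0112). In these 4 genes the diets did not overlap, as in 15 of the 33 genes in all, 11 lower and 4 higher, where 27.7% and 10.9% of all genes tested did so. Acad11 (-1.55 ± 0.37, adjusted p = 0.015), Echdc1 (-2.50 ± 0.52, adjusted p = 0.00875), Acad10, Etfa, Hadhb, Eci2 and Mlycd were also lower on HFD. The diets overlapped in Hadhb and Eci2, whose calls were lost under 10 and 17 of the 22 alternatives. The 3 that rose were Echdc2 (0.79 ± 0.19, adjusted p = 0.016), Cpt2 (0.67 ± 0.22, adjusted p = 0.0431) and Vnn1 (1.98 ± 0.51, adjusted p = 0.0193). The call on Cpt2 was lost under 11 of the 22 alternatives. Vnn1 had 59.7, 80.5 and 54.2 TPM in labelled KO HFD livers against 4.58, 26.9 and 27.6 TPM in labelled KO LFD livers, and without the lowest of these, LFD liver 2, the difference was 1.20 (adjusted p = 0.0184). Without labelled KO HFD liver 1, 7 of the 14 calls held, those of Etfdh, Hadha, Acads, Echs1, Acad11, Echdc1 and Echdc2. The differences of the others were then -0.60 for Acad10, -0.49 for Etfa, -0.81 for Hadhb, -0.89 for Eci2, -0.54 for Mlycd, 0.66 for Cpt2 and 2.03 for Vnn1 (adjusted p = 0.0514 to 0.171). Without labelled KO HFD liver 5 the count was 8, and without labelled KO LFD liver 5 it was 7.

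**Figure D5:**
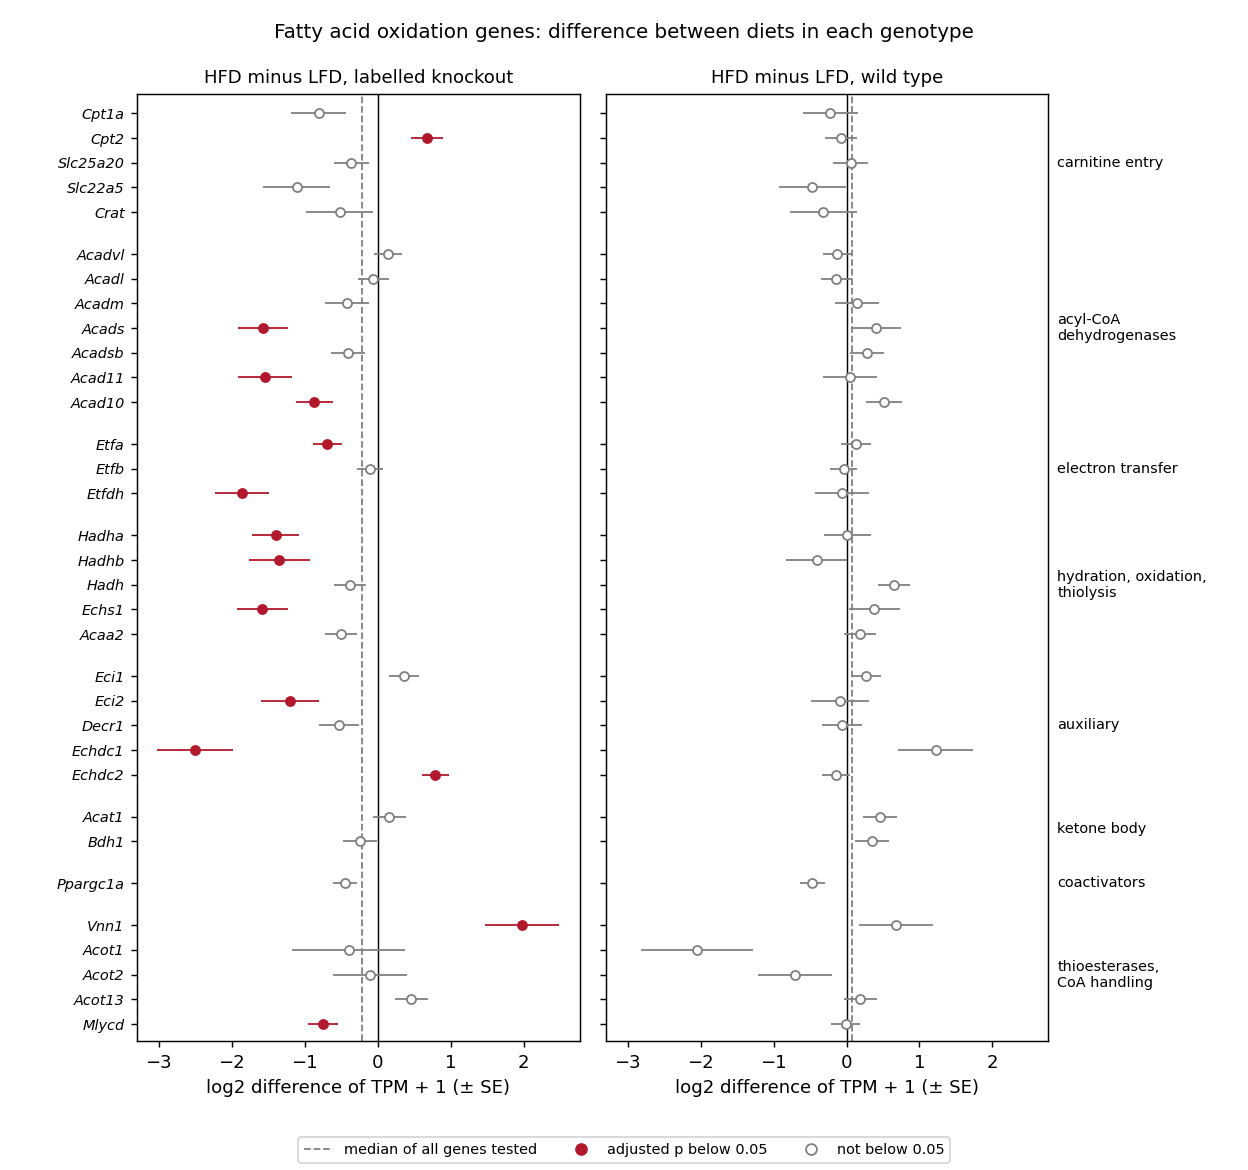
Difference between HFD and LFD for the 33 tested genes, grouped by role, in livers labelled knockout (left) and in WT livers (right). The x axis is the log2 difference of TPM + 1, points are estimates, bars are ± SE from limma with 3 livers per group, filled points have an adjusted p below 0.05, and the dashed line is the median of all genes tested (-0.22 on the left and 0.08 on the right). On the left 11 filled points lie below 0 and 3 above, while on the right none is filled.

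In WT livers HFD against LFD gave 0 calls by limma among the 33 genes, and 4 had an unadjusted p below 0.05, where 0.309% of all genes tested were called and 12.1% had such a p. The median was 0.01 over the listed genes and 0.08 over all genes tested, with 16 differences negative and 17 positive. Hadh had 344, 286 and 300.4 TPM in WT HFD livers and 225, 194 and 174 TPM in WT LFD livers (0.65 ± 0.22, adjusted p = 0.253). Acot1 had 49.5, 45 and 76.2 TPM in WT HFD livers and 249, 203 and 246 TPM in WT LFD livers (-2.05 ± 0.77, adjusted p = 0.309). Both genes were apart between the diets, as were 10 of the 33 in all, 4 lower and 6 higher, where 8.81% and 15.2% of all genes tested were. The labelled KO LFD livers, which varied most in Acot1, enter the shared estimate of spread, and in a fit of the WT livers alone Acot1 was called at the same difference (adjusted p = 0.0215).

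Of the 34 genes 8 share over 20% of their 31-base words with other genes, so that reads could be assigned to either. Besides Echdc1, Acot1 and Acot2 these were Etfb (49.9%, mostly with Gm45233, which was at most 0.6 TPM), Slc22a5 (37.8%, mostly with Slc22a21), Acadvl (33.2%, with Dvl2), Acad10 (24.2%, mostly with Acad12) and Hadhb (23.7%, mostly with Gm13910). Of these partners, Acad12 was the only one above 2 TPM, at 3.14 to 5.42 TPM in labelled KO HFD livers and 6.45 to 9 TPM in WT HFD livers. The level of Acad10 is therefore uncertain as well.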

How the data were processed

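Poly(A) RNA of 12 snap-frozen livers was sequenced from TruSeq libraries, per the labels' protocols. Per the submitters' processing notes, HISAT2, StringTie and build mm10 were used, without stated versions. The deposited table gives TPM that sum to 1000000 in each library, and no counts. Its knockout columns carry another abbreviation and were matched through the animal numbers. Depth is unknown, so no counting interval was computed. Symbols are in the table or from GENCODE M21 (55141 of 56107 genes). Genes reaching 1 TPM in 3 or more libraries were fitted as log2(TPM + 1) in limma 3.58.1 (R 4.3.3). The model held a mean for each of the 4 groups, a prior variance that follows the mean level and 2-sided tests adjusted by Benjamini-Hochberg. Calls have an adjusted p below 0.05, and the fit was tested on simulated data. No set test was made.

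The listed genes, other lists and markers were chosen with earlier results of these data known. Library values are printed for the 20 genes of lowest p on HFD, for up to 6 called in each other comparison and for at least 1 gene of each role, and library values of other listed genes were added after they were seen. Of each other list, up to 4 genes of lowest p on HFD could be named, and some of them are not reported here. Alternatives were another pseudocount, other filters, 3 other scalings, fits of the compared groups alone, array weights, a robust prior, a block for the animal number, and omission of each library in turn. Python 3.11.15 and matplotlib 3.10.9 drew the figures.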

Additional observations from a re-analysis of the deposited data

Results flagged for a closer look

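The difference between livers labelled KO and WT livers was itself different between diets, by the interaction in limma, for 4 of the 33 tested genes. The interaction was -1.97 for Acads (adjusted p = 0.0342), -1.38 for Acad10 (adjusted p = 0.0362), -1.96 for Echs1 (adjusted p = 0.0377) and -3.72 for Echdc1 (adjusted p = 0.0215) on the log2(TPM + 1) scale. Among all genes tested, 9.66% passed in the same comparison, a share near the 12.1% of the listed genes. The levels of Echdc1 and Acad10 are uncertain, since 84.3% and 24.2% of their 31-base words also occur in other genes. Each of the 4 kept its sign under the 21 alternatives that could be fitted. The calls of Acads and Echs1 were lost under 8 of them, that of Acad10 under 7 and that of Echdc1 under 5.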

How the results depend on the processing

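No called gene on the list changed sign under any alternative run. On HFD between genotypes, 17 of 24 calls held under all 22 alternatives, that of Ppargc1a held under the 21 in which it was tested, and Acaa2, Acat1, Acadsb, Eci1, Slc22a5 and Slc25a20 were lost under 1 or more. The median of all genes tested moved from -0.25 to -0.06 (median-ratio scaling), -0.08 (quantile normalization) and -0.18 (without mitochondrial genes), and the listed genes stayed at -0.66, -0.71 and -0.70 relative to it, against -0.72. Of the 33 listed genes 28, 29 and 30 differences were then negative, against 30. The share of calls that were lower went from 69.6% to 55.1%, 55.8% and 63.5%. For the 5 comparisons in the order genotype on HFD, genotype on LFD, diet in WT, diet in livers labelled KO and interaction, leaving out each library gave 2336 to 4661, 5 to 65, 8 to 97, 1599 to 3000 and 28 to 2038 genes called, against 4435, 19, 37, 2846 and 1157. Of the listed genes 19 to 27, 0 to 1, 0 to 0, 7 to 14 and 0 to 9 were called, against 24, 0, 0, 14 and 4. Array weights gave 7733, 71, 2598 and 4893 genes for genotype on HFD, genotype on LFD, diet in WT and interaction, and 7 and 16 listed genes for diet in WT and interaction. Fits of the compared groups alone gave 0, 214 and 727 genes for genotype on LFD, diet in WT and diet in livers labelled KO, and 2 listed genes in each diet comparison. With no filter, 12, 8 and 182 genes were called for genotype on LFD, diet in WT and interaction, and 9 and 0 listed genes for diet in livers labelled KO and interaction. For genotype on LFD a pseudocount of 0.1 gave 8 genes, median-ratio scaling 52 with 1 listed gene, and quantile normalization 45. A filter of 5 TPM gave 19 genes for diet in WT and 7 listed genes for the interaction, where quantile normalization gave 8. Deviations of same-numbered livers correlated at -0.255 to 0.102 across genes. With so few pairs, these values cannot decide whether the animal numbers pair the livers. With the replicate number as a block, 4014, 11, 45, 2617 and 972 genes and 22, 0, 0, 11 and 4 listed genes were called. The cause of these changes was not tested.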
